A study of Mus musculus with 2 samples.

Results

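The 37 genes described here encode the DNA replication machinery and the factors that prepare cells for S phase. They were taken by symbol, and all 37 were present among the 27998 genes that both count tables share. No cut on measured values set the list, but it was drawn up with earlier results of these data known. Their transcripts were counted in single cells from the lambdoid junction of mouse embryos at E11.5, the place in the developing upper lip where the maxillary prominence touches the nasal ones. There were 2 libraries, each from tissue of 4 to 5 pooled C57BL/6J embryos: 1 wild-type and 1 of genotype Crect; ROSA26-lacZ, which carries a Cre recombinase transgene active in early surface ectoderm and a lacZ reporter in the ROSA26 locus. Each genotype was thus a single library, and no test between genotypes was possible.

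Replication is licensed in G1, when CDC6 helps load the MCM2 to MCM7 helicase onto origins, and geminin, encoded by Gmnn, blocks reloading later in the cycle. At S phase entry CDC45 and the GINS complex activate the helicase, polymerase alpha with its primase starts each strand, and the PCNA clamp, loaded by replication factor C, holds the copying polymerases on the template. Most of these genes are transcribed under E2F factors at the G1/S boundary, while a different group, under the CHR promoter element, peaks in G2 and mitosis. In the face at this stage the mesenchyme of the prominences grows out under a thin ectoderm, which includes the flat outer layer called periderm and the thickened nasal pit epithelium.

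The promoters of the members were searched for these elements. RefSeq promoter windows (GRCm38.p6, 250 bases before to 50 after a start site) matched 28 of the 37 genes, and a script searched both strands for 4 E2F words, TTTGGCGC, TTTCCCGC, TTTGCCGC and TTTCGCGC, which can overlap each other. At least 1 word was present in 13 of the 28 (46.4%), against 704 of all 27025 genes with a window (2.6%). The CHR word TTTGAA was in 5 of the 28 (17.9%) and in 20.2% of all genes, while 32 of 44 G2/M genes (72.7%) held it. The windows below carry E2F words (capitals) of 4 licensing genes, of the PCNA-linked ubiquitin ligase gene Dtl and of 3 chromatin genes. Upstream words of Hells and Pola1, and words past a start site such as a further one of Mcm7, are not shown. The windows are written 5′ to 3′ on the strand of the gene.
Mcm5: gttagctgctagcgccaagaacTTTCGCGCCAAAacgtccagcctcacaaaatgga
Mcm6: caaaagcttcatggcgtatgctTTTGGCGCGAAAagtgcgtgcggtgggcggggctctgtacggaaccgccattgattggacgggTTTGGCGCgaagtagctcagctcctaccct
Mcm7: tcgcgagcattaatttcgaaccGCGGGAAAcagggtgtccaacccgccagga
Cdc6: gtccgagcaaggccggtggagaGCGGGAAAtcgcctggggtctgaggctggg
Dtl: caatcagaaagcgtgacgtcagTTTGGCGC
Casp8ap2: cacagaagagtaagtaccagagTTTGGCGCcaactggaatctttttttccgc
Cdca7: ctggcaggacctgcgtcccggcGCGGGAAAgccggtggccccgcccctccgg
Uhrf1: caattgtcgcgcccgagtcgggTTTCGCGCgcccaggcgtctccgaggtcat
The Mcm5 window lies at chr8:75109334-75109389 on the plus strand and holds 2 overlapping words. The Mcm6 window, at chr1:128359723-128359837 on the minus strand, holds 3 words, 2 of them overlapping. Mcm7 is at chr5:138172019-138172070 (minus strand), Cdc6 at chr11:98907991-98908042 (plus) and Dtl at chr1:191575545-191575574 (minus), where the word ends at the start site. Casp8ap2 is at chr4:32615272-32615323, Cdca7 at chr2:72476126-72476177 and Uhrf1 at chr17:56304106-56304157, all on the plus strand. All 8 stretches lie upstream of the start site that defines their window. Those of Mcm7, Cdc6 and Uhrf1 lie inside the annotated span of the gene, so another start site lies farther upstream. Word matches describe the letters of a window and were not tied to bound factors.

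Ectoderm was defined as cells with at least 2 Epcam UMIs (944 wild-type and 762 Crect; ROSA26-lacZ cells), and mesenchyme as cells with at least 3 UMIs of Prrx1, Prrx2 and Twist1 together and at most 1 of Epcam (6259 and 5488 cells). The libraries held 126638790 and 127765199 UMIs, with medians of 16180 and 18734.5 UMIs per ectodermal cell and 13759 and 17723 per mesenchymal cell. The marker sums followed the gates: 10 ectoderm markers summed to 1802 and 1689 UMIs per 1000000 (CPM) in ectoderm against 36.7 and 48.2 in mesenchyme. A list of 10 mesenchyme markers summed to 3131 and 2870 in mesenchyme. These lists include the gate genes Epcam, Prrx1, Prrx2 and Twist1, so part of this match was fixed by the gates. The same mesenchyme markers still summed to 750 and 942.3 CPM in ectoderm, where 176 and 275 cells reached 3 UMIs of the mesenchyme gate genes. Globin transcripts summed to 6178 and 4748 CPM in ectoderm and 19170 and 5762 CPM in mesenchyme. The libraries shared 76 cell barcodes.

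Replication transcripts were lower in ectoderm than in mesenchyme in both libraries. The 37 genes together made up a mean of 33.3 UMIs per 10000 in a wild-type ectodermal cell and 43.9 in a mesenchymal cell, which is 24.3% lower. In the Crect; ROSA26-lacZ library the means were 28.5 and 35.2, a level 19.1% lower in ectoderm. Ectoderm lay below mesenchyme in each library, although wild-type ectoderm was close to the mesenchyme of the other library. As a ratio, the gap was widest among cells with few replication transcripts: the 10th percentile of ectodermal cells was 0.50 and 0.59 times that of mesenchymal cells, the median 0.73 and 0.79 times, and the 90th percentile 0.87 and 0.92 times. In UMIs per 10000 the 75th percentiles lay farther apart than the 10th, at 44.3 against 58.5 in the wild-type library and 37.9 against 45.9 in the other, where the 10th were 11 against 21.8 and 10.2 against 17.2. Without cells positive for both gates, the mean over libraries of the ratio of ectoderm to mesenchyme was 0.766, against 0.784 with them. Without cells holding 30% or more globin UMIs it was 0.782. The part of doublets or free RNA in the difference was not tested.

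**Figure D1:**
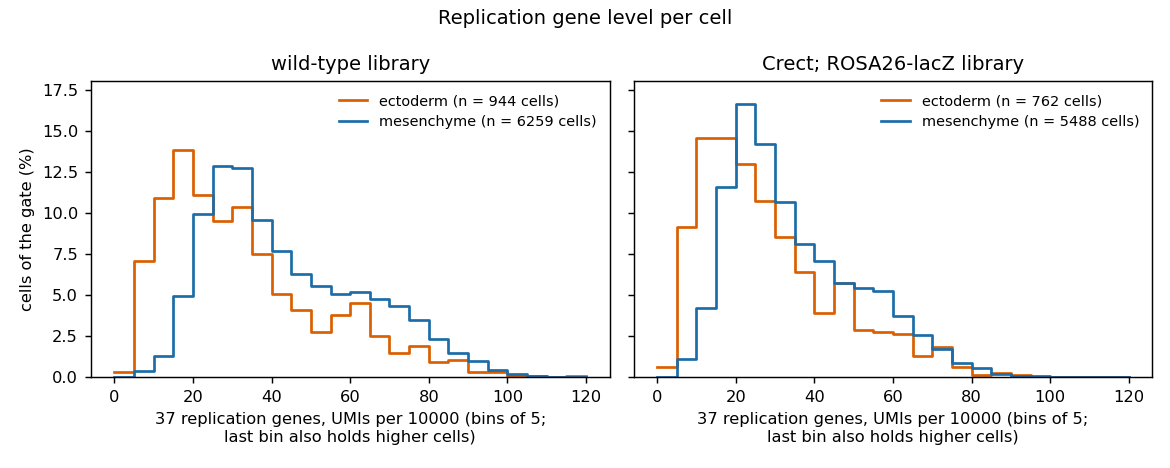
Distribution of the summed level of the 37 replication genes, in UMIs per 10000 UMIs of a cell (x axis, bins of 5), as the percentage of cells of each gate (y axis), for ectoderm (orange) and mesenchyme (blue) in each library. The ectodermal curve is shifted to the left. As a ratio the shift is largest at the lower end, with a 10th percentile 0.50 and 0.59 times that of mesenchyme and a 90th percentile 0.87 and 0.92 times. In UMIs per 10000 the 75th percentiles lie farther apart than the 10th.

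Gene by gene, counts were summed over the cells of each gate in each library, and the 4 sums were compared with edgeR's quasi-likelihood test in a fit blocked by library, with p-values adjusted over 15423 genes by the Benjamini-Hochberg method. At an adjusted p under 0.05, 27 of the 37 genes were lower in ectoderm, 2 were higher and 8 were not called. Over all genes tested, 21.1% were called lower and 21.8% higher. The median change of the 37 was -0.29 on the log2 scale, a ratio of 0.82, beside -0.03 for all genes, and 0 members were called at 2-fold or more, a size at which 7.07% of all genes were called lower and 11.7% higher. The sign was the same in both libraries for all 37, negative for 33 and positive for 4. In the blocked fit, 52.7% of all genes tested had a negative change. The share of all genes with the same sign in both libraries was not computed. The calls rest on the pairing of the gates within a library: without the library as a block, 2 were lower, Rrm2 and Dtl, and 0 higher. With 1 residual degree of freedom, the p-values lean on the spread estimated across all genes, and they measure how these 2 pools repeated.

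**Figure D2:**
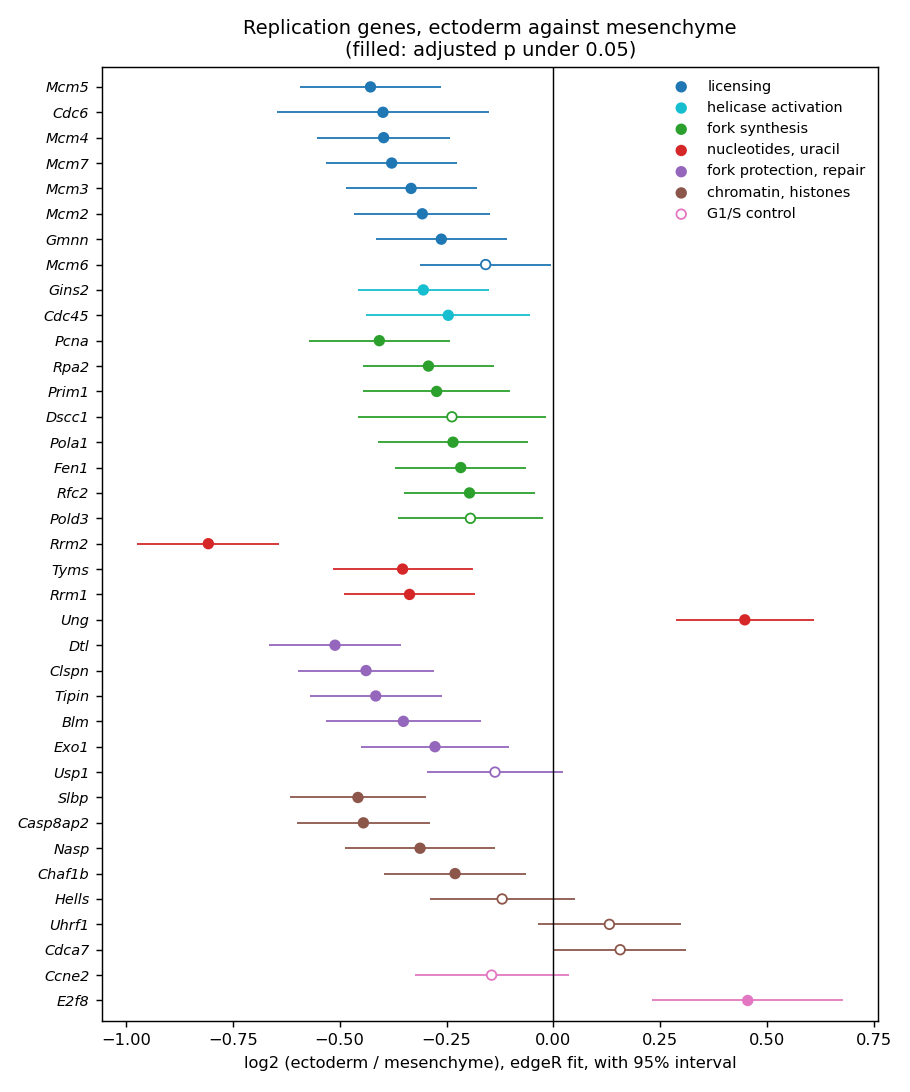
Log2 ratio of ectoderm to mesenchyme (x axis) for each replication gene (y axis), with its 95% interval from the edgeR fit, coloured by role, with filled points at an adjusted p under 0.05. The 27 filled points left of 0 span 6 of the 7 roles, Rrm2 lies farthest to the left, and Ung and E2f8 are the filled points on the right.

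The licensing genes fell together: 7 of 8 were lower in ectoderm, including 5 of the 6 Mcm helicase subunits, with a median of -0.36 on the log2 scale. Gmnn, which encodes the inhibitor of relicensing, was at 135.1 CPM in wild-type ectoderm and 167.4 in mesenchyme, and at 129 and 151.7 in the Crect; ROSA26-lacZ library. The ectodermal level was lower by 1.20-fold (95% interval 1.08 to 1.33, adjusted p = 0.0131), and both ectodermal values lay below both mesenchymal values. Mcm7, a helicase subunit with an E2F word printed above, measured 120.9 CPM in wild-type ectoderm against 162.7 in mesenchyme, and 119.5 against 151.8 in the other library. Its level was 1.30-fold lower (1.17 to 1.45, adjusted p = 0.00203), with no overlap between gates. Mcm5, with overlapping E2F words, was the licensing gene with the largest fold, 1.35-fold lower (adjusted p = 0.00151), and Cdc6 was 1.32-fold lower (adjusted p = 0.0172). Mcm6, whose promoter holds 3 words, was the exception, at a 1.12-fold lower level that did not pass the test (1.003 to 1.242, adjusted p = 0.0903).

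Both genes of helicase activation were called lower. Gins2, a subunit of the GINS complex, had 70.9 CPM in wild-type ectoderm and 89.1 in mesenchyme, and 70.8 and 87.1 in the Crect; ROSA26-lacZ library. The ectodermal values were nearly equal in the 2 libraries and lay below both mesenchymal values, with a 1.24-fold difference (1.11 to 1.37, adjusted p = 0.00643). Cdc45 measured 22.5 against 27.7 CPM in the wild-type library and 18.3 against 21.1 in the other. Wild-type ectoderm therefore exceeded Crect; ROSA26-lacZ mesenchyme, and the 1.19-fold difference within libraries passed narrowly (1.04 to 1.35, adjusted p = 0.0428). That call was lost in 7 of the 13 alternatives that gave a test, among them the one that left out cells positive for both gates (adjusted p = 0.105).

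Of 8 genes for synthesis at the fork, 6 were lower in ectoderm, and Dscc1 and Pold3, a subunit of polymerase delta, were not called. Pcna, which encodes the sliding clamp, was at 124.3 CPM in wild-type ectoderm and 162.1 in mesenchyme, and at 137.9 and 188.5 in the other library. The gates did not overlap, and ectoderm had the lower level by 1.33-fold (1.18 to 1.49, adjusted p = 0.00203). Rfc2, a subunit of the clamp loader, differed less, with 122.9 against 146 CPM and 117.9 against 132.1 CPM. Its 1.15-fold difference (1.03 to 1.27, adjusted p = 0.0424) lost its call in 6 of those 13 alternatives. The other called members of this role were Rpa2, of the single-strand binding complex, the primase gene Prim1, the polymerase alpha gene Pola1 and the flap nuclease gene Fen1, at 1.16 to 1.23-fold lower levels.

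The nucleotide genes held both the largest fall and one of the rises. Rrm2, the S phase subunit of ribonucleotide reductase (chr12:24708254-24714146, GRCm38.p6), had 186.2 CPM in wild-type ectoderm and 346.8 in mesenchyme, and 152 and 253.1 in the Crect; ROSA26-lacZ library. Every ectodermal value was below every mesenchymal value, and the 1.75-fold difference (1.56 to 1.96, adjusted p = 3.66e-05) kept its call in all alternatives with a test. Its partner subunit gene Rrm1 was 1.26-fold lower (adjusted p = 0.00389). Tyms, the gene of thymidylate synthase, measured 151.7 against 191.5 CPM and 134 against 175.5 CPM, and was 1.28-fold lower (1.14 to 1.43, adjusted p = 0.0042). Ung, which encodes the uracil glycosylase that removes misplaced uracil from DNA (chr5:114130366-114139321), went the other way. It had 70.2 CPM in wild-type ectoderm against 51.6 in mesenchyme, and 57 against 42.2 in the other library. Both ectodermal values lay above both mesenchymal values, by 1.36-fold (1.22 to 1.53, adjusted p = 0.00104), and without the block the adjusted p was 0.103.

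Among the genes for fork protection and repair 5 of 6 were lower. Dtl, the substrate receptor of the ligase that degrades proteins on chromatin-bound PCNA, was at 63.8 against 92.8 CPM in the wild-type library and 62.1 against 87.8 in the other. The gates did not overlap, and the difference was 1.43-fold (1.28 to 1.59, adjusted p = 0.000363). Clspn, the gene of the fork checkpoint adaptor claspin, was 1.36-fold lower (adjusted p = 0.00107). Tipin, of the fork protection complex, had 133.9 and 118.5 CPM in ectoderm and 181.7 and 157.4 in mesenchyme, so both ectodermal values were the lower ones. The fold was 1.33 (1.20 to 1.49, adjusted p = 0.00128). The helicase gene Blm and the nuclease gene Exo1 were also called lower. Usp1, a deubiquitinase acting on PCNA, measured 148.1 against 161.5 CPM and 101.3 against 113.8 CPM, a 1.10-fold difference that did not pass the test (adjusted p = 0.151).

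The chromatin genes split. Those for histone supply and assembly were lower in ectoderm: Nasp, a histone chaperone gene, had 398.9 against 511.8 CPM and 332 against 403.8 CPM, a 1.24-fold difference (1.10 to 1.40, adjusted p = 0.0111). Slbp, which encodes the binding protein of histone mRNA, measured 194.9 against 278.3 CPM in the wild-type library and 158.4 against 211.8 in the other, 1.37-fold lower without overlap (1.23 to 1.53, adjusted p = 0.000888). Casp8ap2 was 1.36-fold lower and the assembly factor gene Chaf1b 1.17-fold lower. The 3 genes tied to maintenance of DNA methylation or to remodelling, Uhrf1, Cdca7 and Hells, were not called. Uhrf1 measured 103.1 CPM in wild-type ectoderm and 91.6 in mesenchyme, and 95.7 and 91 in the other library (1.10-fold higher, 0.98 to 1.23, adjusted p = 0.182). Cdca7 measured 121.4 against 109.5 CPM and 96 against 86.8 CPM (1.12-fold higher, 1.001 to 1.241, adjusted p = 0.0955). Both passed as higher when cells positive for both gates were left out (adjusted p = 0.0449 and 0.0321), and the Cdca7 value was -0.0046 when cells were thinned to 5000 UMIs before gating. Hells was 1.09-fold lower (adjusted p = 0.228).

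Neither of the 2 G1/S regulators among the 37 was called lower. Ccne2, a cyclin that drives S phase entry, had 34.7 against 39.3 CPM and 21 against 23 CPM, a 1.11-fold lower level that was not called (adjusted p = 0.175). Its values differed more between the libraries than between the gates. E2f8, a repressor of the E2F family (chr7:48866429-48882073), measured 18.2 CPM in wild-type ectoderm and 13.8 in mesenchyme, and 13.3 and 9.43 in the other library. It was 1.37-fold higher in ectoderm within libraries (1.17 to 1.60, adjusted p = 0.00563), although wild-type mesenchyme lay above Crect; ROSA26-lacZ ectoderm. When each cell was thinned to 5000 UMIs, the log2 difference was 0.15 and was not called (adjusted p = 0.542). At that depth 6.73% of ectodermal and 6.44% of mesenchymal wild-type cells had an E2f8 UMI, and 4.99% and 4.56% in the other library.

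**Figure D3:**
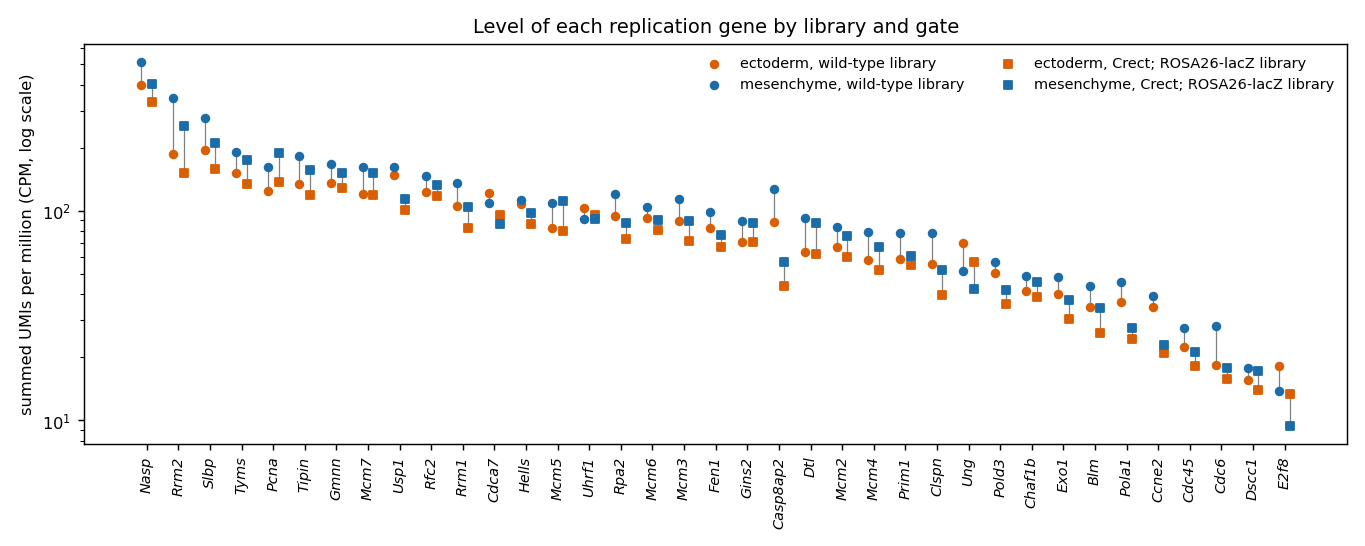
Level of each replication gene (x axis, ordered by its mean) as summed CPM (y axis, log scale) in ectoderm (orange) and mesenchyme (blue) of the wild-type (circles) and Crect; ROSA26-lacZ library (squares), with a line joining the gates of 1 library. The orange point is the lower one of the pair for 33 genes in both libraries, and the higher one for Ung, E2f8, Cdca7 and Uhrf1.

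Members were called lower both with and without an E2F word. Of the 13 members with a word, 8 were called lower, 0 higher and 5 not called, with a median log2 change of -0.33. Of the 15 with a window and no word, 13 were lower and 2 higher, namely Ung and E2f8, with a median of -0.31. Cdca7 and Uhrf1, whose windows are printed above, carried the word and were not lower, while Rrm2 carried none and fell the most.

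Replication genes outside the 37 were also more often lower than higher. Of 63 others, 32 were called lower in ectoderm and 3 higher, with a median of -0.26 on the log2 scale. Tk1, the S phase thymidine kinase gene, measured 69 against 104.9 CPM and 59.9 against 88.7 CPM (1.49-fold lower, adjusted p = 0.000183). Timeless, whose product pairs with that of Tipin, was 1.43-fold lower (adjusted p = 0.000905), and Wdhd1 1.42-fold (adjusted p = 0.00508). Rnaseh2a, for an enzyme that clears RNA from DNA, and Pole3 were 1.20-fold and 1.15-fold higher (adjusted p = 0.0211 and 0.0362). Of 50 G2/M genes, 31 were lower and 0 higher, with a median of -0.26.

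Regulators of the G1/S decision moved in both directions: of 30 listed genes outside the 37, 9 were lower and 7 higher, or 30% and 23.3%, beside 21.1% and 21.8% of all genes. Ccne1, a cyclin of S phase entry (33.7 against 63.1 CPM and 29.8 against 53.7 CPM), the activator gene E2f1 and the repressor gene E2f5 were lower by 1.83, 1.54 and 1.54-fold (adjusted p = 2.36e-05, 0.000331 and 0.000224). Cdkn1a, which encodes the cyclin-dependent kinase inhibitor p21, was at 75.1 and 54.7 CPM in ectoderm against 2.28 and 3.13 in mesenchyme. That was 23.9-fold higher (17.4 to 32.8, adjusted p = 5.21e-07). Ccnd2 and Cdk6, a cyclin and a kinase that promote S phase entry, were 2.97-fold and 2.01-fold higher (adjusted p = 0.00011 and 1.94e-05). At lower levels, and named after their values were seen, the inhibitors of S phase entry Cdkn2a (8.99 and 5.81 CPM against 0.149 and 0.136) and Rb1 (17.6 and 14.8 CPM against 4.81 and 4.13) were 51-fold and 3.64-fold higher (adjusted p = 1.68e-06 and 5.33e-06).

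Single cells were then compared at 1 depth, 5000 UMIs per cell, which left out 57 and 47 cells of all those kept. An ectodermal cell had a UMI for a mean of 11.3 of the 37 genes in the wild-type library and a mesenchymal cell for 13.9, and the values were 10.1 and 11.9 in the other library. Cells with over 44 UMIs per 10000, the upper tercile of all cells in the gates, made up 23.4% of wild-type ectoderm (exact binomial 95% interval 20.7 to 26.2) and 40.9% of mesenchyme (39.7 to 42.1). In the Crect; ROSA26-lacZ library these shares were 19.6% (16.8 to 22.6) and 25.9% (24.7 to 27.1). The intervals cover counting error only, since cells of 1 library are not replicates.

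Cells low for replication genes and for G2/M genes at once were more frequent in ectoderm. They were cells in the lower tercile on each list, with at most 26 UMIs per 10000 of the 37 genes and at most 46 of the 50 G2/M genes. In wild-type ectoderm 259 of 936 cells were low for both (27.7%, 24.8 to 30.7), against 501 of 6226 mesenchymal cells (8.05%, 7.38 to 8.75). In the other library the shares were 32.6% (29.3 to 36.1) and 16.6% (15.6 to 17.6). Ectoderm was also more often low on each list taken by itself. The replication limit was met by 45.8% of wild-type ectodermal and 23.8% of mesenchymal cells, and by 57.3% and 39.75% in the other library. For the G2/M limit the shares were 43.2% and 27.4%, and 48.6% and 37.4%. How far these shares account for the cells low for both was not tested. The ectodermal share of cells low for both was the higher one in each library. Its binomial intervals cover counting error only and do not test the gates, since cells of the same library are not replicates. These class limits are cuts through a continuous level, and 103 wild-type ectodermal cells lay within 10% of the replication limit. Across cells, the levels of the lists had a Pearson r of 0.07 and 0.02 in ectoderm and of -0.25 and -0.17 in mesenchyme (n = 936, 761, 6226 and 5459 cells), and both levels share each cell's total.

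**Figure D4:**
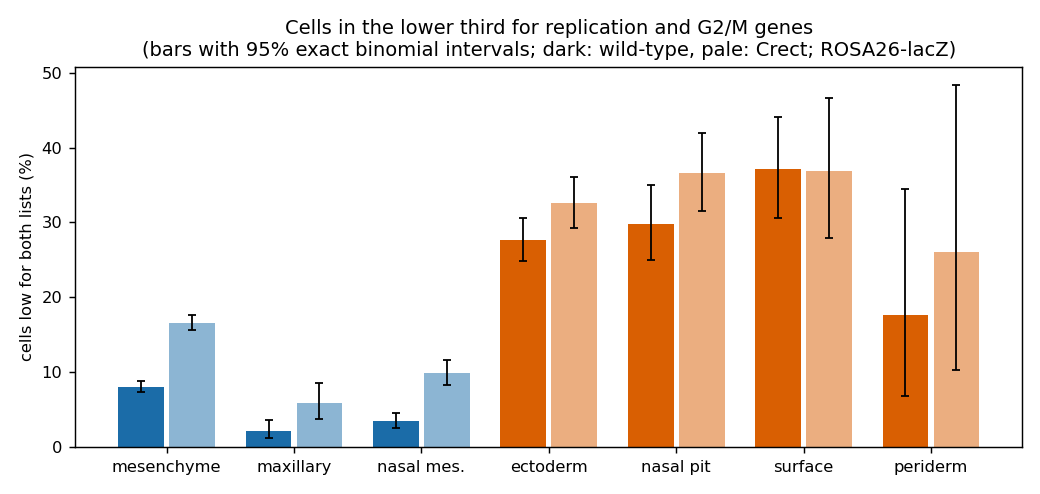
Percentage of cells (y axis) in the lower tercile for both the replication and the G2/M list after thinning to 5000 UMIs, by gate (x axis), with 95% exact binomial intervals, for the wild-type (dark) and Crect; ROSA26-lacZ library (pale). Mesenchymal gates (blue) lie between 2.18% and 16.6%, and the nasal pit, surface and whole ectoderm (orange) between 27.7% and 37.1%, while the periderm bars rest on 34 and 23 cells.

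As a ratio, most members also varied more between cells in ectoderm. Each gene was measured in cells of the upper and lower tercile, ranked by the sum of the other 36 members, and the ratio of these levels was larger in ectoderm than in mesenchyme for 34 of 37 genes in the wild-type library, 33 in the other and 30 in both. The median ratio was 3.69 in ectoderm against 2.64 in mesenchyme, and 3.51 against 2.49. These ratios were not computed for other genes. Rrm2 shows the pattern: its ratio was 6.51 in wild-type ectoderm, from 0.571 to 3.71 UMIs per 10000, and 3.26 in mesenchyme, from 1.79 to 5.83. In the other library the Rrm2 ratios were 7.16, from 0.428 to 3.06, and 2.97, from 1.36 to 4.03. In UMIs per 10000 the Rrm2 span was thus not wider in ectoderm in either library. Nasp varied less, with 2.51 against 1.51 and 2.19 against 1.56. Cdca7 hardly differed between the gates, with 1.55 against 1.65 and 1.64 against 1.62.

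The share of cells with Cdkn1a was higher in ectoderm. Within ectoderm these cells had a slightly lower mean level of replication transcripts at equal depth, but not without thinning. At 5000 UMIs per cell, 23.6% of wild-type ectodermal cells (221 of 936) had a Cdkn1a UMI, against 0.851% of mesenchymal cells, and the shares were 18.5% and 1.06% in the other library. Ectodermal cells with a Cdkn1a UMI had a mean of 31.9 UMIs per 10000 of the 37 genes and those without had 33.6, a ratio of 0.95. In the other library the levels were 26.8 and 29.1, a ratio of 0.92. The 10th to 90th percentiles of cells overlapped widely, at 8 to 62 with Cdkn1a and 10 to 67.2 without in the wild-type library. They were 8 to 54 and 10 to 56 in the other, and the difference was not tested. Without thinning the ratios were 1.10 and 1.01, the opposite direction, and the cells with Cdkn1a were then the deeper ones (medians of 17690.5 against 15372.5 UMIs and 20122 against 17638.5). G2/M genes differed more at equal depth, with ratios of 0.87 and 0.75.

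Periderm, taken as ectodermal cells with at least 2 UMIs of Gabrp, numbered only 34 and 23 cells. Periderm markers, which include the gate gene Gabrp, summed to 1245 and 1191 CPM there and to 149.5 and 135.7 CPM in all ectoderm. Against ectoderm without Gabrp, edgeR's quasi-likelihood test called 5 of the 37 genes lower and 1 higher, where 8.39% of 12642 genes were called lower and 9.18% higher. Cdca7 fell to 72 and 64.6 CPM from 125 and 98.1 (1.67-fold, adjusted p = 6.12e-05), and Rrm2 to 121.4 and 100.8 CPM from 191.2 and 153.4 (1.59-fold, adjusted p = 2.93e-05). Pola1 measured 13.4 and 23.3 CPM against 38.6 and 24.5, so that its 1.81-fold difference (adjusted p = 0.0175) came almost wholly from the wild-type library. E2f8 was higher, at 34 and 25.9 CPM against 17.6 and 12.4 (1.95-fold, adjusted p = 0.00335). Prim1 and Uhrf1 were the other genes called lower, and 11 of the 37 had opposite signs in the libraries. Without the library block 0 were called, and with DESeq2 1 was lower and 0 higher. The fit took its spread from all genes alone, so these p-values do not measure how a single gene repeated.

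Among ectodermal cells without Gabrp (896 and 726 cells), the nasal pit and a surface gate with Tfap2b differed little in these genes. Part of these cells fell in neither gate. Nasal pit cells had at least 3 UMIs of Aldh1a3 and Six3 together and no Tfap2b (334 and 341 cells). Surface cells had Tfap2b and at most 1 UMI of Aldh1a3 and Six3 (212 and 111 cells). A list of 6 neuron markers summed to 27.3 CPM in wild-type and 190.6 in Crect; ROSA26-lacZ surface cells, and to 47.2 and 54.1 in the pit. The surface gate thus held more neuronal transcripts in the Crect; ROSA26-lacZ library. Of the 37 genes, 5 were higher in the nasal pit and 0 lower, with 8.65% of 11751 genes called higher and 6.64% lower. At an unadjusted p under 0.05 there were 10 members in either direction, and 25.4% of all genes. Prim1 measured 67.2 and 65.7 CPM in the pit against 53.1 and 45.2, without overlap (1.36-fold, adjusted p = 0.00784). Ccne2 had 37.9 and 20.3 CPM against 24.9 and 16.9 (1.43-fold, adjusted p = 0.0335), with overlap between libraries. Gins2 had 80.4 and 70.8 CPM against 62.2 and 59.9 (1.26-fold, adjusted p = 0.0457), and Usp1 and Hells were the others. None of the 5 was called with DESeq2, without the library block or after thinning.

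In mesenchyme, maxillary cells (at least 2 UMIs of Shox2 and no Pax7, 641 and 410 cells) and nasal cells (Pax7 and no Shox2, 1411 and 1225 cells) had similar levels of most members. Of the 37 genes, 2 were lower in maxillary cells and 1 higher, against 8.87% and 9.29% of 13073 genes called. Pcna had 156 and 181.7 CPM in maxillary cells and 185 and 209.5 in nasal cells (1.15-fold lower, adjusted p = 0.00314), with overlap between libraries. Prim1 had 68.5 and 55.9 CPM against 87.1 and 64 (1.19-fold lower, adjusted p = 0.00337). The gene called higher was E2f8, at 15 and 12.8 CPM against 11.3 and 8.45 (1.43-fold, adjusted p = 0.00468). The median over the 37 was -0.02 on the log2 scale, while 24 of the 50 G2/M genes were called higher in maxillary cells.

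Across all cell gates the mesenchymal ones had the highest summed level in both libraries. At 5000 UMIs per cell nasal and maxillary mesenchyme had 46.9 and 45.1 UMIs per 10000 in the wild-type library and 37.9 and 36.6 in the other. Chondrogenic cells, gated on Sox9 and Col9a1, followed with 41.7 and 31.9, and endothelial cells had 34.8 and 26.2. The nasal pit, surface, periderm and neuronal ectodermal gates lay between 27.9 and 32.6 in the wild-type library and between 25 and 31.5 in the other. Macrophages had 26.9 and 26.1. Erythroid cells were lowest with 17.4 and 15.7. Periderm, neuronal ectoderm and glial gates held 23 to 34 cells each, and no order was read among them.

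**Figure D5:**
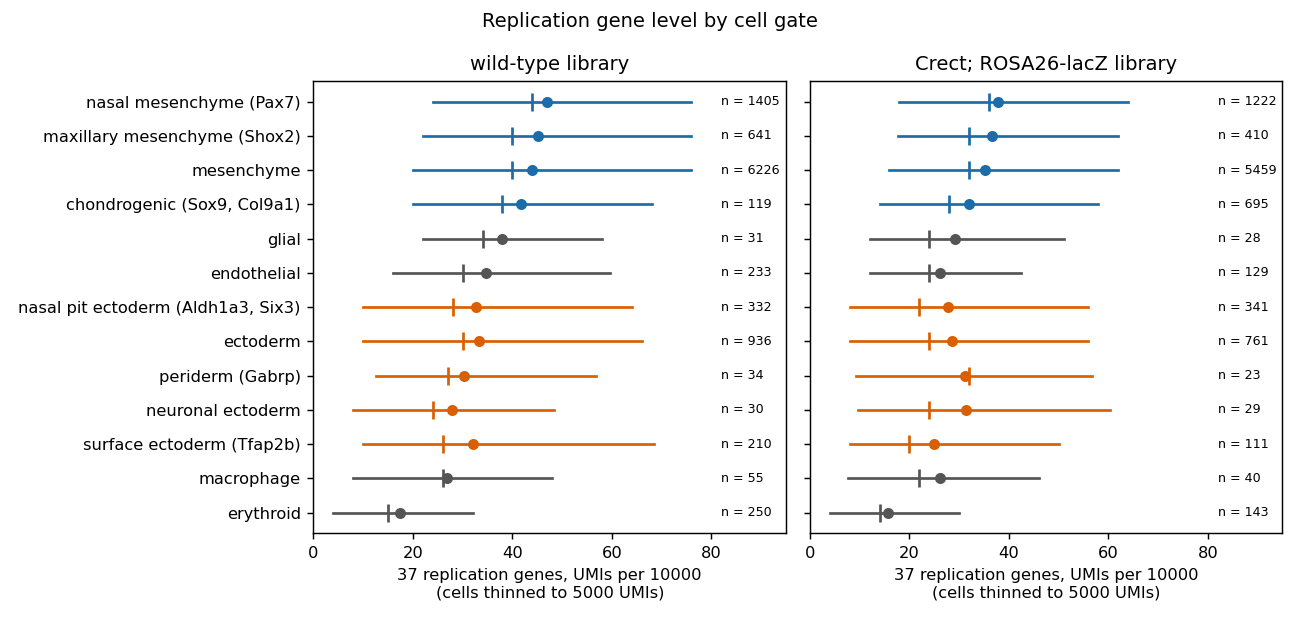
Summed level of the 37 replication genes after thinning to 5000 UMIs, in UMIs per 10000 (x axis), for each cell gate (y axis) and library, with the mean (dot), the median (tick) and the 10th to 90th percentile of cells (line), and the number of cells at the right. Mesenchymal gates (blue) reach means of 46.9 and 37.9, ectodermal gates (orange) lie lower, and erythroid cells are lowest at 17.4 and 15.7.

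Most members had a higher CPM in the wild-type library than in the Crect; ROSA26-lacZ library, in both gates. In ectoderm 36 of 37 were higher, with a median ratio of 1.23, and in mesenchyme 35 of 37, with a median ratio of 1.27. Pcna and Mcm5 were the exceptions in mesenchyme, at 162.1 against 188.5 CPM and 109.2 against 111.5 CPM. Over all genes tested, 8295 of 15264 were higher in ectoderm of the wild-type library and 8637 of 15379 in its mesenchyme, with median ratios of 1.03 and 1.04. The G2/M genes shifted alike, with median ratios of 1.21 and 1.30. With 1 library per genotype, the genotype and the library cannot be told apart.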

How the data were processed

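The authors deposited filtered 10x Genomics 3' v2 count matrices, made with Cell Ranger 2.0 against mm10 per the submitters' processing notes. Their values are UMI counts, not normalized. Such 3' counts are not scaled by transcript length. Barcodes with over 10% of UMIs in mitochondrial genes were removed, which left 7909 of 7966 wild-type and 6687 of 6894 Crect; ROSA26-lacZ cells. Doublets were kept in the main analysis and removed in an alternative: Scrublet marked 170 wild-type barcodes but only 2 (0.03%) in the other library, where the 369 highest scores were removed instead.

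Counts were summed per gate and library and fitted with edgeR 4.0.16 (TMM, filterByExpr, quasi-likelihood test, Benjamini-Hochberg adjustment over all genes tested). The library was a block because both gates of a library came from the same pooled embryos. With 1 library of each genotype, correlation between deviations could not be checked. DESeq2 1.42.0 was an alternative. CPM are per 1000000 UMIs of the gate. On data simulated for the ectoderm comparison over 15423 genes, the test recovered 18% of 1.25-fold, 70% of 1.5-fold and 86% of 2-fold changes. For periderm it recovered 2%, 12% and 44% (12642 genes). The simulation gave every gene the same spread and no library effect, and the changed genes were drawn at random over all levels. These shares therefore do not describe the members themselves.

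Full values were given for the 2 members of each role with the highest CPM, every member called higher in ectoderm and the 3 with the largest changes in each direction at a mean of 20 CPM or more over the 4 sums. For other genes and comparisons up to 3 per direction were named by size of the called change, above the same 20 CPM. Mcm5, Mcm6, Cdc6, Rrm1, Rpa2, Prim1, Pola1, Fen1, Clspn, Blm, Exo1, Casp8ap2, Chaf1b and Hells in the main comparison, and E2f8 in maxillary cells, were named after their values were seen. The 37 members and the lists were chosen with earlier results of these data known. The members without a promoter window were Mcm4, Gins2, Rfc2, Gmnn, Ccne2, Exo1, Tipin, Dscc1 and Usp1.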

Additional observations from a re-analysis of the deposited data

Results flagged for a closer look

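The summed level of the G1/S regulators among the members, Ccne2 and E2f8, moved in opposite directions in the libraries: the ratio of ectoderm to mesenchyme was 0.956 in the wild-type and 1.042 in the Crect; ROSA26-lacZ library. The summed level of all 37 members in periderm against other ectoderm did so too, with ratios of 0.883 and 1.066 over 34 and 23 periderm cells. Neither difference between libraries was tested.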

How the results depend on the processing

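The ratio of the summed level in ectoderm to that in mesenchyme, 0.784 as the mean over libraries, was 0.728 with thinning to 5000 UMIs before gating and 0.766 to 0.812 over the other alternatives, and it was 0.757 and 0.810 with 1 library left out. The count of members called lower in ectoderm was 18 with DESeq2 and 21 to 31 in the other alternatives with the library block. The count called higher, 2, became 1 with DESeq2, with thinning to 5000 UMIs after gating and with thinning before gating, and 4 without cells positive for both gates. The median log2 change, -0.29, was -0.34 with thinning after gating, -0.41 with thinning before gating, -0.33 with gates on UMIs per 10000 and -0.33 among cells with 10000 to 25000 UMIs, and -0.31 to -0.28 with 1 library left out.

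Without the replicate block, which ignores the pairing of gates within a library, 2 members were lower and 0 higher in ectoderm, as were 2 and 0 of the 63 other replication genes, 3 of the G1/S control genes were lower, and 0 members were called lower or higher in periderm, in the nasal pit and in maxillary mesenchyme. The G1/S control list otherwise had a median of -0.11, which was -0.19 with thinning before gating and -0.18 among cells with 10000 to 25000 UMIs. The 63 other replication genes gave 17 lower and 1 higher with DESeq2, and 1 higher with thinning before gating. Their median was -0.22 with thinning after gating, -0.28 with thinning before, -0.23 with at most 5% mitochondrial UMIs and -0.23 without periderm and neuronal cells.

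In periderm, DESeq2 called 1 member lower and 0 higher, as did thinning, 1 and 0. In the nasal pit, DESeq2 and thinning each called 0 higher, and the median log2 change was 0.063 to 0.105 with 1 library left out. In maxillary mesenchyme, DESeq2 called 0 lower and 0 higher, thinning 1 and 0, and the test without a filter on low counts 4 lower. The Cdca7 difference between ectoderm and mesenchyme was -0.0046 with thinning before gating (adjusted p = 0.978). The ratio of members by Cdkn1a, 0.936, was 1.05 without thinning, where the cells with a Cdkn1a UMI were also the deeper ones. The cause of these shifts was not tested. The alternative without globin-rich cells, and thinning before gating for the summed level, were chosen after seeing the data.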
